A study of Mus musculus with 16 samples.

Results

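Control centrocytes, the light zone B cells of the germinal centre, were compared with control centroblasts, the dark zone cells, gene by gene. The libraries were chosen by their labels: 4 of control centrocytes and 4 of control centroblasts, 8 of the 16 in the series. All came from spleen B cells of C57BL/6J mice aged 3 months, taken on day 8 after immunization with SRBC, sheep red blood cells, which start a germinal centre reaction. Every cell was sorted as B220+, FAS+ and CD38-, centroblasts further as CXCR4+ CD86- and centrocytes as CXCR4- CD86+. Control mice carried Cγ1-cre+/-, a Cre recombinase expressed from the IgG1 constant region locus in B cells that transcribe it, mostly in germinal centres, and no floxed Ezh2 allele. The other 8 libraries came from Ezh2(Y641F)fl/wt;Cγ1-cre mice sorted in the same way, in which Cre switches on a mutant histone methyltransferase. They serve here as a second set in which to read the same zone difference. The labels call the 4 libraries of a group biological replicates, place all mice in litter 1, and do not say whether a centroblast and a centrocyte library share a mouse.

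The germinal centre is where activated B cells diversify and select their antibody genes. In the dark zone centroblasts divide and mutate their immunoglobulin genes. In the light zone centrocytes hold antigen with the mutated receptor, present it on MHC class II to follicular helper T cells and receive CD40 and cytokine signals, after which they return to the dark zone, leave as memory or plasma cells, or die. Cells move between zones along chemokine gradients, with CXCR4 holding them in the dark zone.

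The control libraries held 36838945 to 39788263 counted reads each, with a count for 19838 to 26724 of the 49492 listed genes. The first principal component of the 8 libraries, with 40.7% of the variance, put all centroblast libraries at −53.83 to −27.79 and all centrocyte libraries at 17.77 to 47.76. Centrocyte library 1 lay nearest to the centroblasts on it, at 17.77, against 42.4 to 47.76 in the other centrocyte libraries. The second component, with 27.6%, spread the centroblast libraries from 62.68 in library 1 to −45.51 in library 4. Y-linked transcripts marked libraries 1 and 2 of each group as male and libraries 3 and 4 as female. Without centrocyte library 1, 2294 genes were called higher and 2069 lower, against 2270 and 1960 with it.

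The sort genes check the gate and nothing more. Cxcr4 measured 441, 423, 448 and 464 CPM in the centroblast libraries and 202, 193, 209 and 184 CPM in the centrocyte libraries, where CPM are counts scaled to the library size after TMM correction for composition. Cd86 measured 190, 161, 124 and 106 CPM in centroblasts and 288, 332, 234 and 268 CPM in centrocytes. Neither gene overlapped between the groups. Fas, required in both gates, measured 137 ± 23.1 CPM and 136 ± 18 CPM (SD, n = 4). Cd38, which the gate excludes at the surface, averaged 43.1 ± 12.7 CPM in centroblasts and 90.6 ± 22.4 CPM in centrocytes, and Ptprc, whose protein carries the B220 epitope, 1321 ± 383 CPM and 2043 ± 205 CPM. The germinal centre markers Bcl6, Pax5 and Mybl1 were among 10 of 13 such markers that did not pass the test between zones, and the list's median log2 fold change was 0.00.

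Of 15240 genes tested with edgeR's quasi-likelihood test, 2270 (14.9%) were higher in centrocytes and 1960 (12.9%) were lower, at a Benjamini-Hochberg adjusted p of at most 0.05. Of the called genes 949 (6.23% of those tested) rose and 322 (2.11%) fell at least 2-fold, and 147 rose and 66 fell at least 4-fold. The libraries of the groups did not overlap for 15.4% of genes on the higher side and 12.3% on the lower side. The median log2 fold change of all tested genes was 0.00. Counts of called members in each list below are to be set beside the shares of 14.9% and 12.9%. RNA came from sorted populations, so fewer cells of a type and less RNA per cell cannot be told apart.

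**Figure D1:**
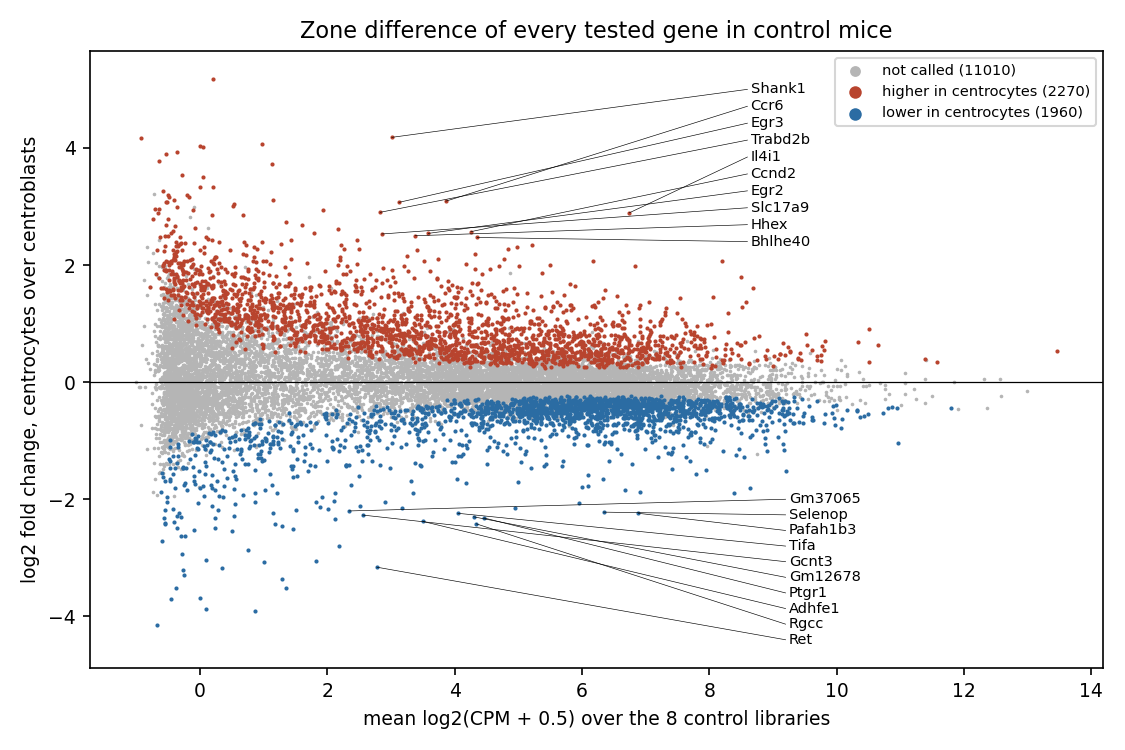
Every tested gene by its mean log2(CPM + 0.5) over the 8 control libraries (x axis) and its log2 fold change of centrocytes over centroblasts (y axis), with genes called higher in red, lower in blue and others in grey. Of the called genes 2270 lie above 0 and 1960 below, and the labelled genes are the 10 largest rises and falls among genes with a mean of at least 2 log2 CPM and no overlap between groups.

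Among genes with a mean of at least 2 log2 CPM and no overlap between the groups, Shank1, a scaffold protein of postsynaptic densities, rose the most. It measured 1.44, 1.39, 2.44 and 1.47 CPM in the centroblast libraries and 20, 34.6, 30.2 and 37.7 CPM in the centrocyte libraries, 18.1-fold (log2 fold change 4.18 ± 0.27 (SE), adjusted p = 2.4e-08), and lies on mm10 chromosome 7 from 44310253 to 44360572. Next came Ccr6, the receptor for the chemokine CCL20 and a marker of memory precursors, at 3.33, 4.54, 6.1 and 5.13 CPM in centroblasts and 38.7, 32.1, 44.8 and 47.5 CPM in centrocytes (log2 fold change 3.09 ± 0.23 (SE), adjusted p = 8.35e-08). Every centrocyte library of both genes stood far above the highest centroblast library. Ccr6 lies on chromosome 17 from 8236043 to 8257141.

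Egr3, a zinc finger factor induced by antigen receptor signals, rose 8.39-fold (2, 2.71, 2.77 and 3.64 CPM in centroblasts and 19.7, 21.3, 23 and 29.4 CPM in centrocytes; adjusted p = 7.87e-08). Ccnd2, the D-type cyclin of B cell activation, measured 4.52, 4.98, 10.1 and 12.2 CPM in centroblasts and 43.8, 34.3, 57.1 and 53.8 CPM in centrocytes, 5.94-fold higher (log2 fold change 2.57 ± 0.40 (SE), adjusted p = 0.000164). Its lowest centrocyte library was still well above its highest centroblast library. Hhex, a homeobox factor needed for memory B cells, rose 5.64-fold, and Bhlhe40, a basic helix-loop-helix repressor, 5.55-fold (adjusted p = 7.87e-08 and 2.4e-08). Trabd2b, a metalloprotease that cleaves Wnt proteins, rose 7.47-fold and Slc17a9, the vesicular nucleotide transporter, 5.76-fold (adjusted p = 3.06e-08 and 3.54e-08). Il4i1, a secreted L-amino acid oxidase, and Egr2 complete the 10 and are described with their lists.

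Among genes within the same limits of level and overlap, Ret, a receptor tyrosine kinase for ligands of the GDNF family, fell the most. It measured 20.4, 16.3, 14.3 and 22.8 CPM in the centroblast libraries and 2.59, 1.36, 2.02 and 2.28 CPM in the centrocyte libraries, 8.94-fold lower (log2 fold change −3.16 ± 0.21 (SE), adjusted p = 3.48e-08), and lies on chromosome 6 from 118151745 to 118197718. Rgcc, a regulator of the cell cycle induced by complement, measured 42.1, 38.4, 51.6 and 50.7 CPM in centroblasts and 7.92, 8.94, 10.3 and 6.95 CPM in centrocytes (log2 fold change −2.42 ± 0.15 (SE), adjusted p = 1.75e-08). In both genes every centroblast library was well above the highest centrocyte library.

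Several further large falls were in enzymes. Adhfe1, a mitochondrial hydroxyacid transhydrogenase, fell 5.21-fold, from 24.5 ± 3.7 CPM to 4.7 ± 0.278 CPM (SD, n = 4, edgeR adjusted p = 1.75e-08). Ptgr1, a prostaglandin reductase, fell 4.98-fold, Gcnt3, a mucin-type glycan branching enzyme, 4.82-fold, and Pafah1b3, a catalytic subunit of platelet-activating factor acetylhydrolase, 4.73-fold. Pafah1b3 measured 179, 210, 316 and 340 CPM in centroblasts and 60.7, 46.2, 61.6 and 52.6 CPM in centrocytes, so that the centroblast libraries ranged widely and none reached the centrocyte values. Selenop, a secreted selenium carrier, fell by 2.22 ± 0.25 on the log2 scale (adjusted p = 6.03e-06), and Tifa, an adaptor of TRAF6 signalling, by 2.24 ± 0.16 (adjusted p = 7.24e-08). The predicted genes Gm12678 and Gm37065 fell 4.92-fold and 4.6-fold.

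Genes of mitosis were lower in centrocytes as a group. Of 40 tested members 28 fell, none rose, and 12 did not pass, with a median log2 fold change of −0.63 against 0.00 for all tested genes, and 26 did not overlap between groups. Cdc25b, the phosphatase that opens entry into mitosis, measured 528, 548, 578 and 684 CPM in the centroblast libraries and 239, 227, 244 and 251 CPM in the centrocyte libraries, 2.43-fold lower (log2 fold change −1.28 ± 0.10 (SE), adjusted p = 1.27e-07). Ccnb2, a mitotic cyclin, measured 247, 234, 271 and 286 CPM in centroblasts and 136, 94.7, 113 and 102 CPM in centrocytes (log2 fold change −1.22 ± 0.11 (SE), adjusted p = 3.74e-07). In both genes the groups were well apart. Ube2c, the ubiquitin-conjugating enzyme of the anaphase-promoting complex, fell 2.07-fold (adjusted p = 1.35e-06), and Kif20a, a kinesin of cytokinesis, 1.93-fold (adjusted p = 2.18e-06). Aurka, the spindle pole kinase, fell from 109 ± 16.8 CPM to 54.5 ± 5.7 CPM (SD, n = 4), and Plk1, the polo-like mitotic kinase, from 157 ± 39 CPM to 88.7 ± 8.17 CPM (adjusted p = 1.28e-05 and 0.00071). Both were named after their values were seen.

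The proliferation antigen Mki67 was among the 12 members that did not pass, at 1562, 1894, 2017 and 725 CPM in centroblasts and 1683, 1166, 1684 and 1435 CPM in centrocytes (log2 fold change −0.05 ± 0.26, adjusted p = 0.903). Its centroblast library 4, at 725 CPM, was the lowest of all 8, and the groups overlapped. Top2a, the topoisomerase that untangles chromosomes, was also lowest in centroblast library 4, with 793 CPM there and 1210 to 1239 CPM in the other centroblast libraries, against 868 to 957 CPM in centrocytes.

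The 2 promoters below show the sequence at the start of the mitosis genes with the smallest p. They are RefSeq windows of GRCm38.p6, from 250 bases before to 50 bases after the start site, written 5′ to 3′ on the gene's strand. Capitals mark CCAAT, and TTTGAA, a core of the cell cycle homology region, searched on both strands.
Cdc25b, chr2:131186698-131186997, plus strand: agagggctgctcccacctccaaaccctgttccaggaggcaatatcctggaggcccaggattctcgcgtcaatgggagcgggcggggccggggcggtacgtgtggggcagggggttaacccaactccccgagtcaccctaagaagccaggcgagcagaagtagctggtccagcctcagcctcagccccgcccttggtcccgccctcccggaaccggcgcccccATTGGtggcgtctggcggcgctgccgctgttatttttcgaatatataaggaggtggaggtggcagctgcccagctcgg
Ccnb2, chr9:70421505-70421804, minus strand: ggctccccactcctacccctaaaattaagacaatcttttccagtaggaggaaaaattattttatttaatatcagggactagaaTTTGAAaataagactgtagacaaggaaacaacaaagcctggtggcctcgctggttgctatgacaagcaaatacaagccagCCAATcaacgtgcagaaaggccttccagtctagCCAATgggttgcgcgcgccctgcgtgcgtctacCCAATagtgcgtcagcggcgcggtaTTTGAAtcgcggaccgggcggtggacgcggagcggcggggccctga
In Ccnb2, 3 CCAAT matches begin 87, 54 and 21 bases before the start site, and TTTGAA begins 167 bases before it and at base 5 after it. The Cdc25b window holds 1 CCAAT match on the opposite strand, 28 bases before the start, and no TTTGAA. Over the mitosis list, 33 of 40 genes had a window, 35 windows in all: 74.3% held TTTGAA and 80% CCAAT. Among the 12240 windows of tested genes those shares were 12.4% and 38%, and among all 32851 windows 17.9% and 37.4%. These shares describe letters in a window and do not show binding.

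Replication genes moved the same way with smaller changes. Of 39 members 25 fell, none rose, and the median log2 fold change was −0.40. Mcm6, a subunit of the replicative helicase, measured 1223, 1122, 1073 and 1155 CPM in centroblasts and 834, 676, 675 and 638 CPM in centrocytes, 1.62-fold lower (adjusted p = 0.000121), and the groups did not overlap. Rrm1, the large subunit of ribonucleotide reductase, fell 1.48-fold and Rfc3, a clamp loader subunit, 1.46-fold (adjusted p = 0.00031 and 0.000615). With male libraries alone 3 members fell (median −0.24) and with females alone 29 (median −0.50). Those fits called 2.76% of all tested genes lower in males and 12.7% in females. An E2F core (TTTGGCG or TTTCCCG, both strands) was in 40.5% of the 37 replication windows and in 8.07% of windows of tested genes. Among 27 regulators of the G1 to S step 2 rose and 5 fell (median −0.17), with Ccnd2 the largest rise. Over all genes tested 14.9% rose and 12.9% fell. The 2 rises became 1 without centroblast library 2 or 3 or centrocyte library 2, 3 or 4. The 5 falls became 2 without centroblast library 3, and 1 without centrocyte library 2 or 3.

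**Figure D2:**
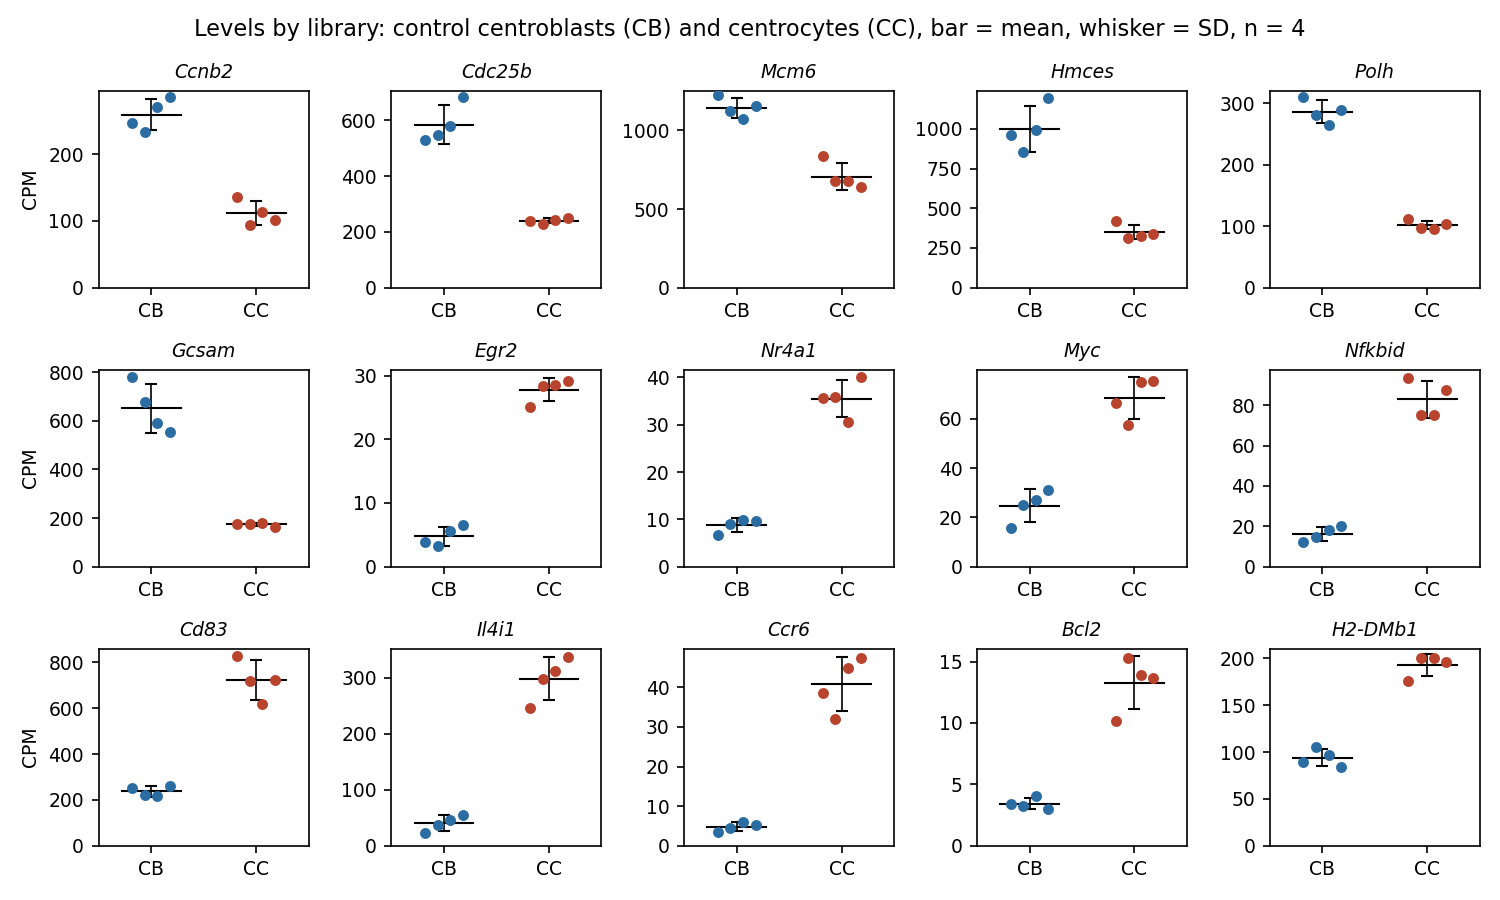
CPM (y axis, from 0) of 15 named genes in the 4 control centroblast libraries (CB, blue) and the 4 control centrocyte libraries (CC, red), libraries 1 to 4 from left to right, with the mean as a bar and the SD as whiskers. Ccnb2, Cdc25b, Mcm6, Hmces, Polh and Gcsam are lower in every centrocyte library than in any centroblast library, and the other 9 genes are higher.

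Of 25 genes of hypermutation and class switching 10 fell and 2 rose, with a median of −0.19. Over all genes tested 12.9% fell and 14.9% rose. Polh, the error-prone polymerase eta that copies across lesions at A and T bases, measured 310, 281, 265 and 289 CPM in the centroblast libraries and 111, 96.7, 96.2 and 103 CPM in the centrocyte libraries (log2 fold change −1.49 ± 0.088 (SE), adjusted p = 1.75e-08). Hmces, a protein that crosslinks to abasic sites, measured 962, 854, 990 and 1197 CPM in centroblasts and 417, 314, 328 and 339 CPM in centrocytes (log2 fold change −1.52 ± 0.12 (SE), adjusted p = 1.73e-07). Neither gene overlapped between zones. The 2 rises became 0 without centroblast library 2 or 3 or centrocyte library 3, and 1 without centroblast library 4 or centrocyte library 1, 2 or 4.

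Of 30 transcription factors of the germinal centre 7 rose, 4 fell and 19 did not pass (median 0.09), against 14.9% higher and 12.9% lower over all genes tested, so that the share of falls was near that of all genes. With the GC content and length offset 7 rose and 10 fell. Irf4, the factor that links receptor and CD40 signals to plasma cell and class switch genes, measured 30.8, 29.7, 34.1 and 47.9 CPM in the centroblast libraries and 79.1, 71.3, 95.7 and 111 CPM in the centrocyte libraries (log2 fold change 1.32 ± 0.20 (SE), adjusted p = 9.57e-05). Zfp318, a regulator of alternative Ighd transcripts, measured 14.6, 14.1, 13 and 10.1 CPM in centroblasts and 35.2, 49.6, 59.3 and 60 CPM in centrocytes, 3.94-fold higher. Batf, an AP-1 partner of IRF4, rose by 0.99 ± 0.21 and Pou2f2 (OCT2) by 0.85 ± 0.13 on the log2 scale (adjusted p = 0.00255 and 0.000191), while Pou2af1, the octamer coactivator OBF1, fell 2.06-fold, from 2863 ± 248 CPM to 1389 ± 40.8 CPM (SD, n = 4). The OCT2 gene and the gene of its coactivator thus moved in opposite directions.

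Bcl6, the repressor that defines germinal centre B cells, measured 494, 524, 498 and 447 CPM in centroblasts and 526, 569, 486 and 486 CPM in centrocytes (log2 fold change 0.07 ± 0.12, adjusted p = 0.675), a gene named after its values were seen. Its libraries overlapped. Pax5, the B cell identity factor, and Bach2, which represses plasma cell differentiation, had log2 fold changes of −0.06 ± 0.15 and −0.35 ± 0.14 (adjusted p = 0.792 and 0.0805). Foxo1, a factor required for the dark zone, was lower in every centrocyte library (370, 293, 259 and 251 CPM in centroblasts and 217, 223, 213 and 225 CPM in centrocytes) and passed at adjusted p = 0.0382. That call was lost without centroblast library 1 or 2 (0.129 and 0.069) and without centrocyte library 1, 2, 3 or 4 (0.0678, 0.0679, 0.0805 and 0.0728), with the replicate block (0.0624) and in males or females alone (0.0782 and 0.143). The log2 fold change was −0.42 with all libraries, −0.40 with the block, −0.29 without centroblast library 1, and −0.59 in males and −0.22 in females. The 4 falls of the list became 2 without centroblast library 2 or centrocyte library 2 or 3, and 1 without centrocyte library 4.

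Immediate early genes, transcribed within minutes of receptor signals, were higher in centrocytes. Of 26 tested 14 rose and 2 fell, with a median log2 fold change of 1.03, the highest of the 23 pathway lists. Egr2, a partner of Egr3, measured 3.8, 3.18, 5.56 and 6.5 CPM in the centroblast libraries and 25.1, 28.4, 28.5 and 29.2 CPM in the centrocyte libraries, 5.83-fold higher (log2 fold change 2.54 ± 0.21 (SE), adjusted p = 2.21e-07). Nr4a1 (NUR77), a reporter of antigen receptor signals, measured 6.71, 8.96, 9.96 and 9.65 CPM in centroblasts and 35.6, 35.8, 30.5 and 40 CPM in centrocytes (log2 fold change 2.01 ± 0.19 (SE), adjusted p = 1.18e-06). Neither gene overlapped between zones. Egr1, the founding member of the EGR family, rose 3.19-fold from 31.2 ± 2.04 CPM to 99.7 ± 9.21 CPM (SD, n = 4, adjusted p = 4.79e-06). Myc, which marks light zone cells selected to divide, measured 15.5, 25.1, 27 and 31.2 CPM in centroblasts and 66.5, 57.3, 74.7 and 75.3 CPM in centrocytes, 2.77-fold higher (log2 fold change 1.47 ± 0.20 (SE), adjusted p = 4.56e-05), and was named after its values were seen.

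The 2 members that fell were Atf3, a stress-induced repressor, and Dusp5, a nuclear phosphatase of ERK. Atf3 measured 3.66, 3.54, 3.68 and 4.36 CPM in the centroblast libraries and 0.294, 0.572, 0.493 and 0.437 CPM in the centrocyte libraries, 8.4-fold lower (log2 fold change −3.07 ± 0.28 (SE), adjusted p = 6.62e-07). It was low throughout, and its groups did not overlap. Dusp5 fell 1.41-fold (adjusted p = 0.00507).

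The Egr2 promoter is shown as the immediate early gene with the smallest p among those with a window that holds a motif, in the same form as the mitosis promoters. Capitals mark TGACGTC, the core of the cyclic AMP response element, on the opposite strand.
Egr2, chr10:67537619-67537918, plus strand: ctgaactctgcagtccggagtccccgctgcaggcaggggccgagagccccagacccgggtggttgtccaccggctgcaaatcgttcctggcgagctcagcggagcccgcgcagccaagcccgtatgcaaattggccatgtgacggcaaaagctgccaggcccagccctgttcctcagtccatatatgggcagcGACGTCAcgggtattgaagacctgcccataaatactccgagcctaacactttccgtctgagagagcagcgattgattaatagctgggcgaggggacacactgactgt
The match begins 57 bases before the start site. Egr2 has 5 RefSeq windows from alternative starts, and the first that holds the motif is printed. TGACGTC was in 23.1% of the 26 windows of the list and in 5.51% of the windows of tested genes.

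Targets and regulators of CD40 and NF-κB rose in 21 of 30 members and fell in 1, with a median of 0.76. Cd83, an activation marker of light zone cells, measured 252, 220, 215 and 262 CPM in the centroblast libraries and 830, 720, 620 and 722 CPM in the centrocyte libraries, 3.04-fold higher (log2 fold change 1.61 ± 0.11 (SE), adjusted p = 3.73e-08). Nfkbid, a nuclear member of the IκB family, measured 12.4, 14.6, 18 and 20.2 CPM in centroblasts and 93.7, 75.3, 75 and 87.7 CPM in centrocytes (log2 fold change 2.34 ± 0.18 (SE), adjusted p = 1.01e-07). Each centrocyte library of both genes was above every centroblast library. The receptor Cd40 itself rose 2.01-fold, from 53 ± 8.62 CPM to 107 ± 5.81 CPM, and Nfkbia, the classical inhibitor IκBα, 2.42-fold, from 47.8 ± 13.3 CPM to 116 ± 11.4 CPM (SD, n = 4, adjusted p = 9.97e-06 and 1.25e-05). These 2 genes were named after their values were seen. Tnfaip3 (A20), a deubiquitinase that limits NF-κB, measured 31.8, 32.2, 37.5 and 31.5 CPM in centroblasts and 66.9, 63.8, 77.6 and 72.1 CPM in centrocytes (log2 fold change 1.08 ± 0.11 (SE), adjusted p = 2.45e-06).

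Il4i1 measured 21.9, 37.3, 46.6 and 55.3 CPM in centroblasts and 246, 298, 313 and 337 CPM in centrocytes, 7.4-fold higher (adjusted p = 7.24e-08). Its exons overlap those of Nup62 on the same strand, which averaged 266 CPM in centroblasts and 207 CPM in centrocytes, so its count is uncertain. Pim1, a survival kinase, was the member that fell, 1.55-fold from 228 ± 29.4 CPM to 147 ± 13.9 CPM (adjusted p = 0.000731). The Tnfaip3 promoter is shown with a κB site, GGG and TTTCC with any 2 bases between them, in capitals on the opposite strand. It has the smallest p among members whose window holds that motif. Il4i1 has a smaller p and a window with TTTGAA alone.
Tnfaip3, chr10:19015361-19015660, minus strand: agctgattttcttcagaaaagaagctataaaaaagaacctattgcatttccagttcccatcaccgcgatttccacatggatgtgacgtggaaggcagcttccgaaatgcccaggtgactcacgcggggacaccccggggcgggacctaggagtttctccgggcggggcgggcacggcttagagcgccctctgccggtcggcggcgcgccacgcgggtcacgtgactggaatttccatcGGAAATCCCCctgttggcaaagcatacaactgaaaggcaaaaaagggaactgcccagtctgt
The match begins 12 bases before the start. Of 31 windows of this list 29% held the motif, against 1.76% of the windows of tested genes and 1.63% of all windows.

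**Figure D3:**
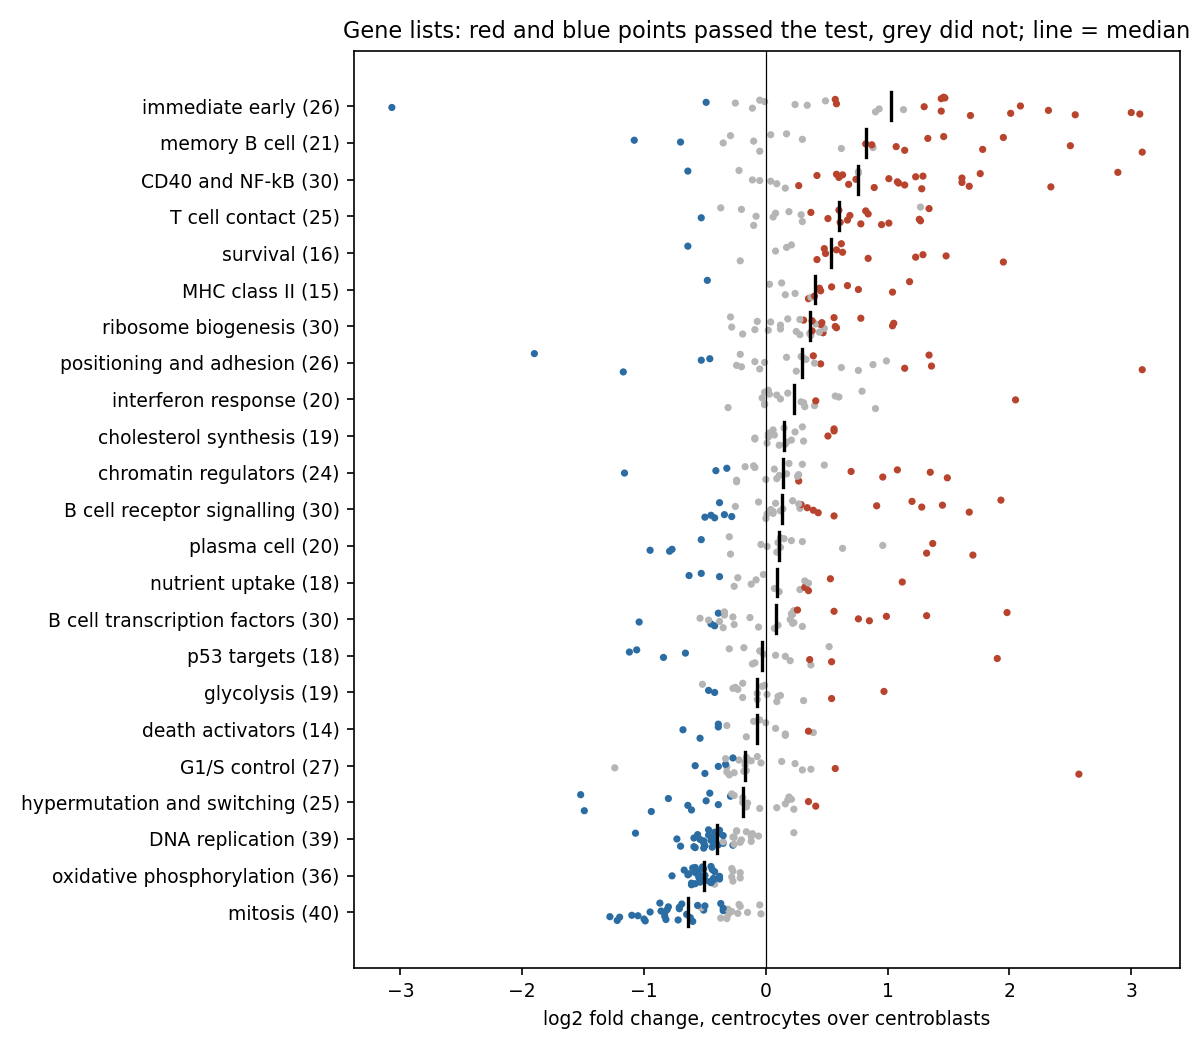
Log2 fold change of centrocytes over centroblasts (x axis) for every tested member of the 23 pathway lists (y axis, number of tested members in brackets), red where called higher, blue where called lower, grey where not called, with the list median as a black line. Medians run from −0.63 in mitosis to 1.03 in immediate early genes, and the oxidative phosphorylation and mitosis points all lie below 0.

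Of 30 antigen receptor signalling genes 11 rose and 6 fell, with a median of 0.13, beside 14.9% higher and 12.9% lower over all genes tested. Receptors that restrain the signal were among the rises: Cd72 measured 156, 151, 167 and 175 CPM in the centroblast libraries and 508, 446, 401 and 412 CPM in the centrocyte libraries (log2 fold change 1.45 ± 0.12 (SE), adjusted p = 2.1e-07), and Cd22, a sialic acid binding inhibitor, 1008, 1126, 1085 and 1060 CPM in centroblasts and 2027, 2058, 2017 and 1934 CPM in centrocytes (adjusted p = 2.42e-06). Cd5, another inhibitory receptor, was low and rose 3.82-fold, from 0.651 ± 0.0847 CPM to 2.5 ± 0.655 CPM. Itpr1, the calcium release channel, rose 2.3-fold, from 63.4 ± 4.7 CPM to 146 ± 19.6 CPM (SD, n = 4).

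The 6 falls included the kinases of the proximal signal. Syk, which docks on the receptor's phosphorylated tails, measured 1472, 1516, 1483 and 1628 CPM in centroblasts and 1185, 953, 1089 and 1080 CPM in centrocytes (log2 fold change −0.50 ± 0.11 (SE), adjusted p = 0.00201). Btk, which activates phospholipase C gamma 2, fell 1.36-fold (adjusted p = 0.00377), and Bcl10, an adaptor towards NF-κB, 1.3-fold (adjusted p = 0.00401). These falls were small beside the rises of Cd72 and Itpr1, and their groups did not overlap. The list held 0 falls in males alone and 6 in females alone, 3 with the replicate block and 4 with the compared groups alone. In mutants 1 member fell, and log2 fold changes there were −0.49 for Syk, −0.17 for Btk and −0.06 for Bcl10. The shares of falls over all genes tested were 2.76% in males alone, 12.7% in females alone and 7.07% in mutants.

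Genes of contact with T cells rose in 14 of 25 members and fell in 1 (median 0.60). The list includes the sort gene Cd86, and 2 members fell without centroblast library 1. Slamf1, a receptor of T and B cell adhesion, measured 84.4, 85.8, 72.7 and 65.7 CPM in the centroblast libraries and 197, 188, 169 and 184 CPM in the centrocyte libraries (log2 fold change 1.26 ± 0.10 (SE), adjusted p = 2.12e-07), whereas its relative Slamf6 was the member that fell, at 248, 200, 181 and 160 CPM in centroblasts and 133, 137, 134 and 141 CPM in centrocytes (log2 fold change −0.53 ± 0.15 (SE), adjusted p = 0.0116). The 2 SLAM genes were thus separated between zones in opposite directions. Tnfrsf14 (HVEM), the ligand of BTLA, rose 2.41-fold, Il2rg, the common cytokine receptor chain, 1.79-fold, and Ifngr2, a chain of the interferon gamma receptor, 1.77-fold (adjusted p = 2.22e-06, 2.86e-06 and 2.71e-06). Il4ra, the interleukin 4 receptor, had a log2 fold change of 0.29 ± 0.14 and did not pass (adjusted p = 0.128).

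Of 15 genes of MHC class II presentation 9 rose and 1 fell (median 0.40). H2-DMb1, a chain of the peptide exchange factor H2-DM, measured 89.7, 105, 96.9 and 84.1 CPM in the centroblast libraries and 176, 200, 200 and 196 CPM in the centrocyte libraries, 2.06-fold higher (log2 fold change 1.04 ± 0.13 (SE), adjusted p = 1.58e-05). Ifi30, the lysosomal thiol reductase that opens antigens, rose 2.26-fold and Ciita, the master regulator of class II genes, 1.59-fold (adjusted p = 1.24e-05 and 0.0013). H2-DMb2, the paralog of H2-DMb1, rose 1.37-fold (adjusted p = 0.0029). The gene that fell was Lgmn, an asparaginyl endopeptidase of lysosomes (log2 fold change −0.48 ± 0.099 (SE), adjusted p = 0.0018). H2-Ab1, a class II beta chain, measured 1662, 2182, 2727 and 3165 CPM in centroblasts and 3436, 2941, 3157 and 3056 CPM in centrocytes, overlapped and did not pass (adjusted p = 0.0913). Its log2 fold change was 0.73 in males and 0.08 in females.

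Of 26 positioning and adhesion genes, the sort gene Cxcr4 among them, 6 rose and 4 fell (median 0.30). Over all genes tested 14.9% rose and 12.9% fell, so that the share of falls was near that of all genes. Gcsam, a germinal centre protein that restrains cell motility, measured 780, 678, 591 and 553 CPM in the centroblast libraries and 176, 175, 181 and 164 CPM in the centrocyte libraries, 3.74-fold lower (log2 fold change −1.90 ± 0.13 (SE), adjusted p = 3.54e-08). S1pr3, a sphingosine 1-phosphate receptor, measured 46, 55.3, 45.3 and 43.8 CPM in centroblasts and 133, 119, 116 and 119 CPM in centrocytes (log2 fold change 1.36 ± 0.11 (SE), adjusted p = 1.25e-07). Gpr183 (EBI2), the oxysterol receptor that draws B cells to the outer follicle, measured 10, 7.8, 10 and 12.4 CPM in centroblasts and 19.4, 19.9, 22.5 and 27 CPM in centrocytes, 2.21-fold higher, and Itgb7, an integrin chain, rose 2.52-fold (adjusted p = 5.18e-05 and 9.31e-05). Gna13 and Rhoa, which relay confinement signals from S1PR2, fell 1.45-fold and 1.37-fold (adjusted p = 0.00321 and 0.00352). The groups did not overlap in any of these 6 genes.

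Of 21 genes associated with memory B cells 10 rose and 2 fell (median 0.82). Klf2, a factor of quiescence and exit, measured 4.77, 5.65, 7.47 and 10 CPM in the centroblast libraries and 18.3, 20.6, 25 and 32.2 CPM in the centrocyte libraries, 3.44-fold higher (log2 fold change 1.78 ± 0.25 (SE), adjusted p = 6.96e-05). Ccr6, Hhex and Gpr183, described above, belong here too, as does the sort gene Cd38. The falls were Nt5e (CD73), an ectonucleotidase, and Cd44, the hyaluronan receptor (2.11-fold and 1.63-fold, adjusted p = 1.36e-05 and 0.000161). Nt5e measured 99.6, 96.6, 110 and 92.1 CPM in centroblasts and 38.6, 40.9, 58.6 and 50.6 CPM in centrocytes, with every centroblast library higher.

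Survival genes rose in 11 of 16 members and fell in 1, Pim1 (median 0.53). The 11 became 7 without centrocyte library 4. Bcl2, the antiapoptotic founder of its family, measured 3.38, 3.25, 4.06 and 2.99 CPM in the centroblast libraries and 10.2, 15.3, 13.9 and 13.7 CPM in the centrocyte libraries, 3.88-fold higher (log2 fold change 1.95 ± 0.19 (SE), adjusted p = 1.16e-06). Birc3, an inhibitor of apoptosis induced by NF-κB, rose 1.55-fold (adjusted p = 3.24e-05). The near-identical Bcl2a1b and Bcl2a1d rose 2.34-fold and 2.45-fold, with counts that the family's copies make uncertain. Mcl1, on which germinal centre B cells depend, averaged 645 ± 160 CPM and 558 ± 40.6 CPM (SD, n = 4) and did not pass (adjusted p = 0.314). Of 14 activators of death 1 rose and 4 fell (median −0.07), beside 14.9% higher and 12.9% lower over all genes tested. Bcl2l11 (BIM) was among the 4, 1.45-fold lower (adjusted p = 0.0109). The 4 became 1 without centroblast library 3 or centrocyte library 2, 3 or 4.

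Of 20 plasma cell genes 3 rose and 4 fell (median 0.11), with the rises at about the share over all genes tested (14.9%) and the falls beside 12.9%. Prdm1 (BLIMP1), a transcriptional repressor that drives plasma cell differentiation, measured 2, 3.87, 5.69 and 4.57 CPM in the centroblast libraries and 4.95, 10.9, 19.7 and 17 CPM in the centrocyte libraries (log2 fold change 1.70 ± 0.37 (SE), adjusted p = 0.00235). Centrocyte library 1, at 4.95 CPM, lay within the centroblast range, and the other centrocyte libraries lay above it. Derl3, of the endoplasmic reticulum degradation machinery, rose 2.59-fold and Irf4 was the other rise. Jchain, the joining chain of IgM and IgA, measured 1662, 1340, 1353 and 1305 CPM in centroblasts and 745, 793, 895 and 840 CPM in centrocytes (log2 fold change −0.79 ± 0.15 (SE), adjusted p = 0.000679). Mzb1, a chaperone of antibody secretion, fell 1.93-fold and the surface receptor Slamf7 1.71-fold (adjusted p = 5.44e-05 and 1.18e-05).

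Genes of oxidative phosphorylation were lower as a group in centrocytes. Of 36 members 29 fell, none rose, and all 36 log2 fold changes were below 0, with a median of −0.51 and a range from −0.77 to −0.21. Sdhd, a membrane anchor of succinate dehydrogenase, measured 140, 148, 143 and 158 CPM in the centroblast libraries and 105, 89, 90.4 and 92.7 CPM in the centrocyte libraries, 1.56-fold lower (log2 fold change −0.64 ± 0.082 (SE), adjusted p = 2.2e-05). Uqcrfs1, the iron-sulfur subunit of complex III, fell 1.49-fold, Uqcrc2, a core subunit of the same complex, 1.55-fold, and Atp5a1, the alpha subunit of ATP synthase, 1.52-fold (adjusted p = 0.000155, 0.000485 and 0.000465). The groups did not overlap in any of these 4 genes. In males alone the median was −0.32 with 0 members called, in females alone −0.71 with 33. Those fits called 2.76% of all tested genes lower in males and 12.7% in females. An offset per library for GC content and transcript length gave −0.35 with 25. Ndufv1, a complex I subunit, did not pass, with a log2 fold change of 0.01 in males and −0.54 in females.

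Ribosome biogenesis genes moved the other way, with 12 of 30 higher and none lower (median 0.36). Polr1b, the second largest subunit of RNA polymerase I, measured 24.7, 26, 24.1 and 26.3 CPM in the centroblast libraries and 52.2, 51, 52.4 and 52.2 CPM in the centrocyte libraries, 2.05-fold higher (log2 fold change 1.04 ± 0.096 (SE), adjusted p = 7.08e-07). The spread within each zone was small beside that rise. Gnl3 (nucleostemin) rose 2.07-fold and Nop56, a core protein of box C/D particles, 1.39-fold (adjusted p = 8.92e-05 and 0.00031), while nucleolin, Ncl, had a log2 fold change of 0.37 ± 0.16 that did not pass (adjusted p = 0.0924).

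Of 19 glycolysis genes 2 rose and 2 fell (median −0.07), neither share above the 14.9% higher and 12.9% lower over all genes tested. Hk2, a hexokinase, rose 1.45-fold (adjusted p = 0.00671), and Ldha, lactate dehydrogenase, had a log2 fold change of −0.03 ± 0.14 (adjusted p = 0.908). Of 18 genes of nutrient uptake and one-carbon metabolism 5 rose and 3 fell (median 0.09), and with the replicate block 1 rose. Their share of falls was near that of all genes. Slc19a1, the reduced folate carrier, rose 2.18-fold and Psat1, of serine synthesis, fell 1.55-fold (adjusted p = 0.000273 and 0.000346). Of 19 cholesterol synthesis genes 3 rose (median 0.15), a share near that of all genes, among them Dhcr7, the last reductase of the pathway, 1.48-fold. Leaving out 1 library changed these counts: the 2 glycolysis falls were 1 without centroblast library 3 or 4 or centrocyte library 2, 3 or 4, and 4 without centroblast library 1. The 5 nutrient rises were 2 or 3 without centroblast library 2 or 3 or centrocyte library 1, 3 or 4, and the 3 cholesterol rises were 1 without centroblast library 2 or centrocyte library 1 or 3.

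Of 24 chromatin regulators 6 rose and 3 fell (median 0.14), beside 14.9% higher and 12.9% lower over all genes tested. The share of falls was near that of all genes. Smarca4 (BRG1), the ATPase of SWI/SNF complexes, measured 698, 862, 938 and 972 CPM in the centroblast libraries and 420, 341, 414 and 381 CPM in the centrocyte libraries, 2.23-fold lower (log2 fold change −1.16 ± 0.14 (SE), adjusted p = 1.29e-05). Kdm6b, an H3K27 demethylase, measured 8.96, 10.4, 12.1 and 13.4 CPM in centroblasts and 29.5, 28.3, 33.6 and 34.7 CPM in centrocytes, 2.81-fold higher (adjusted p = 2.42e-06). Both genes were fully separated between zones. Tet2, a methylcytosine dioxygenase, rose 2.55-fold and Dnmt3a, a DNA methyltransferase, 2.12-fold (adjusted p = 0.000179 and 3.47e-05). Kmt2d, an H3K4 methyltransferase often mutated in lymphoma, rose 1.94-fold (adjusted p = 0.000313), a call lost with the GC content and length offset (0.37, adjusted p = 0.0917).

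Among 18 p53 targets 3 rose and 4 fell (median −0.03), beside 14.9% higher and 12.9% lower over all genes tested. The share of rises was near that of all genes. Plk3, a stress kinase, measured 3.22, 5.06, 4.45 and 6.19 CPM in centroblasts and 16.7, 17.2, 17.4 and 19.4 CPM in centrocytes, 3.73-fold higher (log2 fold change 1.90 ± 0.17 (SE), adjusted p = 6.15e-07). Rrm2b, the p53-induced subunit of ribonucleotide reductase, measured 179, 123, 111 and 70.7 CPM in centroblasts and 50.6, 73.1, 52.6 and 55 CPM in centrocytes (log2 fold change −1.06 ± 0.21 (SE), adjusted p = 0.00136), with a wide spread in centroblasts and 1 centrocyte library above the lowest of them. The 4 falls became 2 without centrocyte library 1 or 3. Of 20 interferon response genes 2 rose and none fell (median 0.23), neither share above that of all genes.

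Markers of other cells the gates could hold were read in the same libraries. Naive B cell markers rose in 5 of 14 tested members and fell in 1 (median 0.69), and summed to 1739 to 1860 CPM in centroblasts and 2499 to 2660 CPM in centrocytes. The 5 were 8 without centroblast library 4, and the 1 fall was 0 without centroblast library 1 or 2 or centrocyte library 2, 3 or 4. Fcer2a (CD23), the low affinity IgE receptor of follicular B cells, measured 124, 182, 138 and 132 CPM in the centroblast libraries and 556, 707, 578 and 581 CPM in the centrocyte libraries, 4.21-fold higher (log2 fold change 2.07 ± 0.14 (SE), adjusted p = 3.73e-08), and Ighd, the IgD heavy chain, averaged 105 ± 17.9 CPM and 242 ± 35 CPM (SD, n = 4, adjusted p = 1.49e-05). These values moved with the rises of the memory list, which shares Klf2, Gpr183, Cd38 and other members with it, and their part in those rises was not tested.

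Macrophage markers with a mean under 20 CPM, 18 of 20, summed to 22.7 to 70.7 CPM in centroblasts and 73.2 to 129 CPM in centrocytes. Of all 20 markers 1, Cd68, a lysosomal glycoprotein, rose (8.02 ± 1.82 CPM against 16.4 ± 1.09 CPM), and the median was 0.90. More of the 20 rose under other settings: 3 with the compared groups alone, 4 with no filter on low counts, 5 with the replicate block or sex as a covariate, and 8 in males alone. In mutants 6 of them rose. The shares of rises over all genes tested were 14.9% with all 8 control libraries, 4.99% in males alone and 8.92% in mutants. T cell markers summed to 5.91 to 8.74 CPM in centroblasts and 11.9 to 15 CPM in centrocytes, and neutrophil markers to at most 3.12 CPM in any library. Plasma cell markers summed to 2482 to 2753 CPM and 1451 to 1657 CPM. Dendritic cell markers summed to 65.3 to 70.9 CPM and 58.7 to 64.8 CPM, stromal and endothelial markers to 84.3 to 90.7 CPM and 110 to 132 CPM, erythroid and platelet markers to 7.54 to 17.1 CPM and 13 to 20.6 CPM, and natural killer cell markers to 1.53 to 3.17 CPM and 1.6 to 3.62 CPM. Most of the dendritic cell sum was Flt3, at 66.5 CPM on average in centroblasts and 59.4 CPM in centrocytes. Most of the stromal and endothelial sum was Pecam1, at 80.8 CPM and 115 CPM. Of the markers in these lists only Pf4, a platelet chemokine, was at 0 in all 8 libraries. The part of these cells in the MHC class II and T cell contact lists was not tested.

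The same zone difference was read in the 8 Ezh2(Y641F) libraries, whose group means are separate from those of controls. All 16 libraries shared 1 filter, 1 scaling and 1 estimate of the spread, so the calls of the 2 genotypes are not independent. In mutants 1360 genes (8.92%) were higher in centrocytes and 1078 (7.07%) lower. Of the 4230 genes called in controls 4182 (98.9%) had the same sign in mutants. Genes called higher in both were 1142, or 50.3% of the control list and 84% of the mutant list, and genes called lower in both were 904, or 46.1% and 83.9%. None was called in opposite directions. Across the 15240 genes the fold changes of the 2 genotypes had a Spearman correlation of 0.777, a description across genes, which are not independent replicates.

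The 10 top rises and 10 top falls, which were chosen on control values, were all called in mutants in the same direction, 9 of the rises and 8 of the falls at a smaller size than in controls. Ccr6 (3.46 on the log2 scale in mutants and 3.09 in controls), Ret (−3.75 and −3.16) and Rgcc (−2.67 and −2.42) were the 3 with a larger size in mutants. Shank1 stood at 3.02 and 4.18, Trabd2b at 2.24 and 2.90, Slc17a9 at 1.72 and 2.53, and Adhfe1 at −1.71 and −2.38. The test of the difference between genotypes called 0 genes in edgeR (0%; 429 at an unadjusted p under 0.05, smallest adjusted p 0.999) and 1 in DESeq2. That 1 gene was Vav3, a guanine nucleotide exchange factor of receptor signalling, named after its values were seen. It measured 1.3, 0.878, 0.965 and 0.903 CPM in centroblasts and 2.97, 3.55, 3.36 and 3.04 CPM in centrocytes in controls (log2 fold change 1.67 ± 0.27), against −0.22 in mutants, a difference of −1.90 (DESeq2 adjusted p = 0.0162). List medians in mutants were −0.78 for mitosis, −0.27 for oxidative phosphorylation, 0.68 for CD40 and NF-κB and 0.60 for immediate early genes. In mutants 33 of 40 mitosis members were called lower, against 28 in controls. The same counts were 11 of 39 against 25 for replication and 6 of 36 against 29 for oxidative phosphorylation. Called higher were 19 of 30 against 21 for CD40 and NF-κB and 13 of 26 against 14 for immediate early genes. For ribosome biogenesis 4 of 30 rose, against 12. Shares over all genes were 7.07% lower and 8.92% higher in mutants, and 12.9% and 14.9% in controls.

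**Figure D4:**
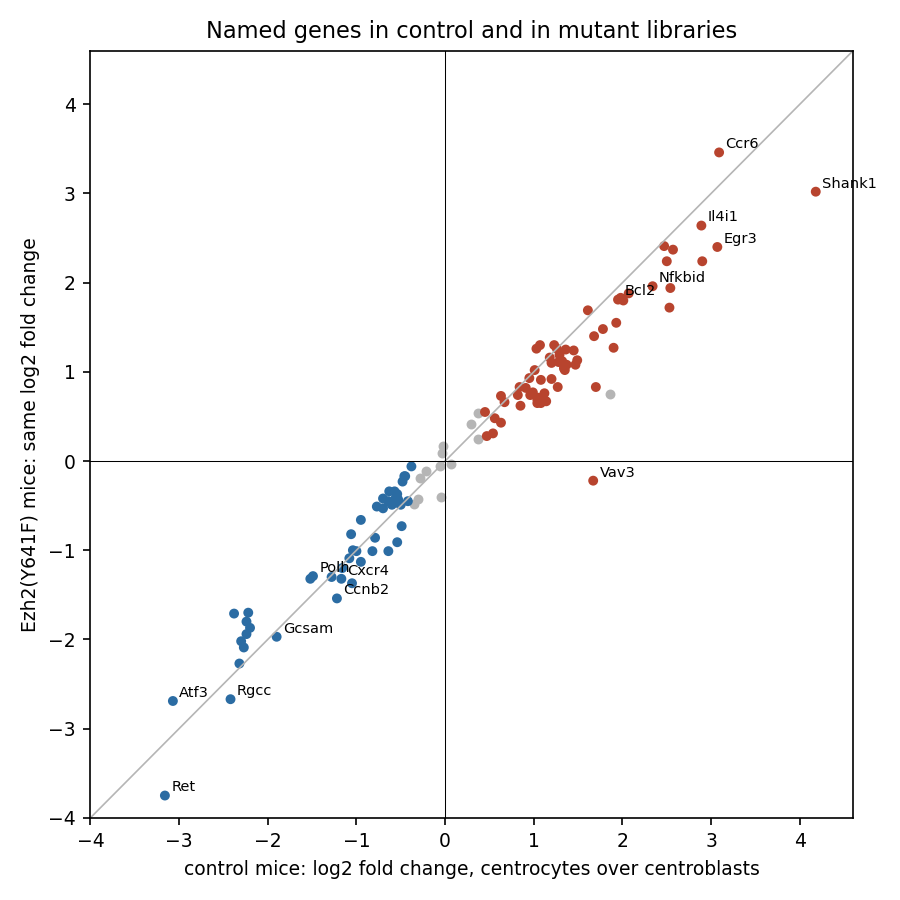
Log2 fold change of centrocytes over centroblasts in control mice (x axis) and in Ezh2(Y641F) mice (y axis) for the named genes, coloured by their call in controls (red higher, blue lower, grey not called), with the line of equal change in grey. Most points lie near the line, and Vav3 lies off it at 1.67 in controls and −0.22 in mutants.

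Male and female libraries were also read apart, 2 against 2. In males 760 genes were higher (4.99%) and 421 lower (2.76%), and in females 2158 (14.2%) and 1943 (12.7%). The test of the zone difference between sexes called 0 genes in edgeR (0%; 1734 at an unadjusted p under 0.05, smallest adjusted p 0.425). Across genes the fold changes of the sexes had a Spearman correlation of 0.556. The fold change correlated with a gene's GC content at 0.339 in males and −0.161 in females, and with transcript length at −0.0236 and 0.248. Sex and other properties of these libraries cannot be told apart. List medians held their sign in both sexes for mitosis (−0.60 in males and −0.55 in females), immediate early genes (1.17 and 1.06), CD40 and NF-κB (0.86 and 0.85), memory genes (0.84 and 0.80) and survival (0.51 and 0.70). They parted by sign for chromatin regulators (−0.01 and 0.33), transcription factors (−0.09 and 0.01), glycolysis (0.10 and −0.13) and plasma cell genes (0.08 and −0.01).

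**Figure D5:**
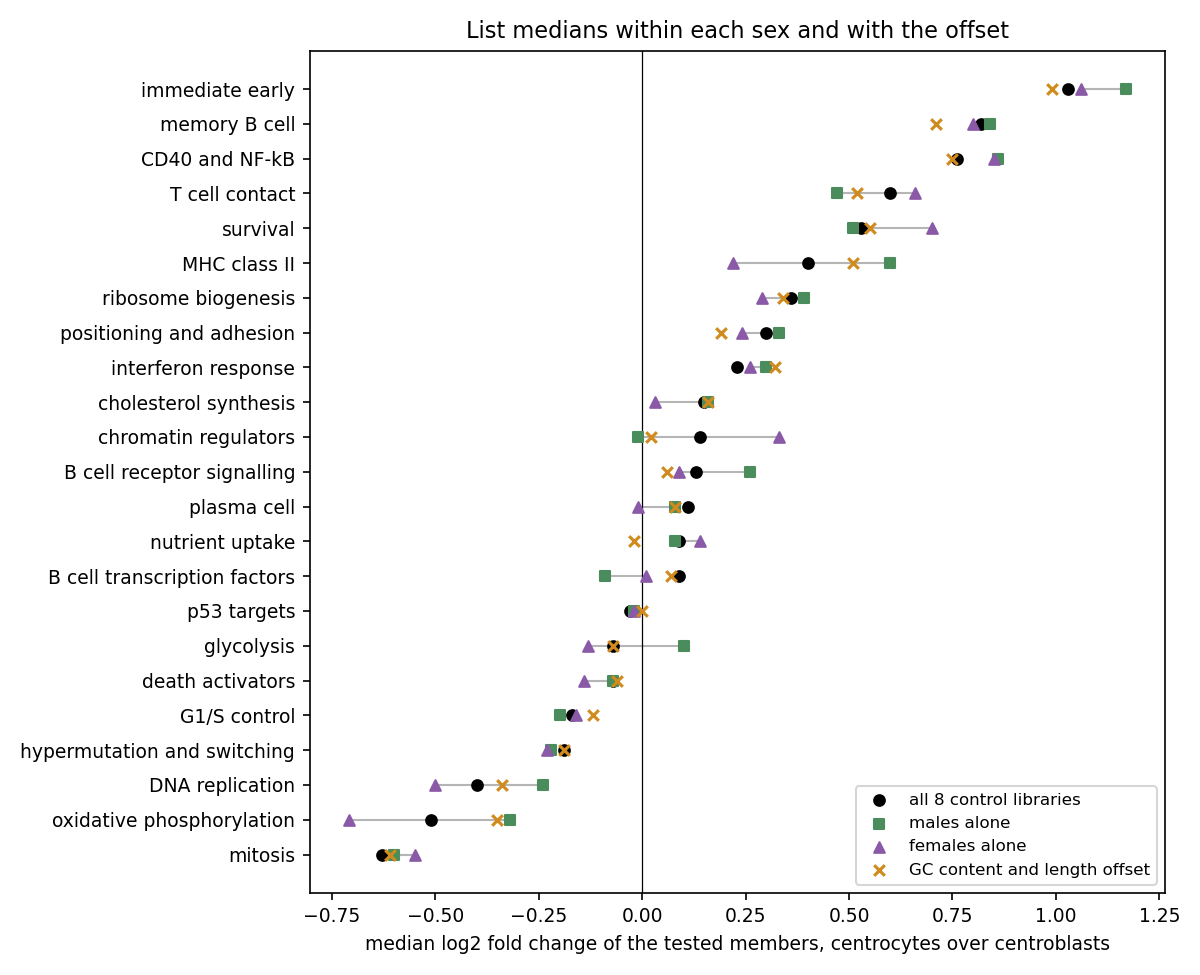
Median log2 fold change of the tested members of each pathway list (x axis, list names on the y axis) over all 8 control libraries (black circles), in males alone (green squares), in females alone (purple triangles) and after correction for GC content and transcript length (orange crosses). Oxidative phosphorylation spans −0.32 in males to −0.71 in females, while the mitosis medians lie within −0.63 to −0.55.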

How the data were processed

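RNA of sorted control centroblasts and centrocytes was sequenced from TruSeq libraries. Per the submitters' processing notes, the authors trimmed reads with Trim Galore and cutadapt, aligned them to mm10 with STAR 2.5.3a and counted them with featureCounts 1.4.5-p1 of Subread. The deposited values are whole read counts per gene symbol, not normalized. Strand and annotation of the counting are not given in the sources used here, so counts of overlapping, antisense and near-identical genes are uncertain. Of 46 named genes that share exon bases with another annotated gene, 13 share them with a gene of at least 10 CPM on average in a zone: Kif20a, Cd72, Il4i1, Il2rg, Atp5a1, Gnl3, Nop56, Ciita, Cdc25b, Gna13, Rhoa, Bcl2a1b and Xist.

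In R 4.3.3, edgeR 4.0.16 fitted 1 mean per group over all 16 libraries after filterByExpr and TMM scaling, with 12 residual degrees of freedom. Two-sided p values were adjusted by Benjamini-Hochberg over 15240 genes. SE values follow from the quasi-likelihood F statistic. Spike-in rows, 92 with 3 counts in all, were left out. Coordinates, GC content and length (96.9% of tested genes) came from GENCODE M21. The procedure was tested on simulated counts. Within each control group no pair of libraries was a duplicate, and other pairs were not checked.

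Named genes were the 10 largest rises and falls among called genes with mean log2 CPM (prior count 2) of at least 2 and no overlap, and of each list up to 4 called members per direction (smallest p) and 2 uncalled ones (highest level), of which a part is named. Some members of the lists are not reported here. The members and lists were chosen with earlier results of these data known, and 7 genes outside the rule are named as such. Named genes were picked after their values, mostly among calls that stayed with every library left out. Promoters were searched for a smaller set of motifs per list than the rule allowed. The alternatives were DESeq2 1.42.0, RLE factors, other filters, the compared groups alone, a replicate block, no immunoglobulin genes, sex as a covariate, an offset of GC content and length and each library left out. Each sex alone and the test between sexes were chosen after seeing the data. Counts are PCR reads without molecular identifiers, so depth bounds counting error only. In the main fit p values set a difference against the spread between replicates, estimated over all 4 groups with both sexes in each.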

Additional observations from a re-analysis of the deposited data

Results flagged for a closer look

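Of 246 pairs of a named gene and a control group, 18 (7.32%) held 1 library whose gap to the nearest other library exceeded Dixon's critical value for 4 samples, as a share of the group's range. Chance flags about 5% of groups, and the genes were picked after their values were seen. Centrocyte library 1, which lay nearest to the centroblasts on the first principal component, held 8 of the 18. It was high for Bhlhe40 (56.9 CPM, others 42.2 to 44.1), Ube2c (69.5, others 57.2 to 59.3), Aurka (63.1, others 51.3 to 52), Rrm1 (552, others 454 to 467), H2-DMb2 (642, others 597 to 599) and Uqcrc2 (262, others 215 to 221). It was low for H2-DMb1 (176 CPM, others 196 to 200) and Slamf7 (181, others 189 to 190).

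Centrocyte library 2 was low for Slc19a1 (14.4 CPM, others 18.9 to 19.2) and high for Fcer2a (707, others 556 to 581), and centrocyte library 3 was high for Cd68 (18, others 15.8 to 15.9). Centroblast library 1 was high for Fas (172 CPM, others 123 to 129) and Jchain (1662, others 1305 to 1353). Centroblast library 3 was high for Shank1 (2.44 CPM, others 1.39 to 1.47) and Tnfaip3 (37.5, others 31.5 to 32.2). Centroblast library 4 was high for Hhex (5.06 CPM, others 3.68 to 3.91) and low for Top2a (793, others 1210 to 1239) and Gnl3 (26.4, others 40.4 to 41.8). Each of these genes that was called between zones stayed called with each control library left out in turn. Named genes were picked mostly among calls that did so.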

How the results depend on the processing

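With each control library left out in turn, 1743 to 2305 genes were called higher in control centrocytes and 1350 to 2069 lower, against 2270 and 1960 with all. In males alone the counts were 760 and 421, with 2 libraries a side. All other settings except the replicate block, given below, gave 1844 to 2893 higher and 1512 to 2717 lower. In mutants the replicate block gave 2099 genes higher, against 1360, and the GC content and length offset gave 1919 lower, against 1078; leaving out a library gave 1022 to 1370 higher and 769 to 1002 lower. DESeq2 called 1 gene lower in the test between genotypes, against 0 in edgeR, which called 0 with every library left out. The cause of these shifts was not tested. The fit of the compared groups alone gives no value for the test between genotypes.

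Of 110 named and called genes, 109 stayed called with each control library left out in turn (all but Foxo1). With DESeq2 or RLE factors 110 stayed called, in males alone 87 and in females alone 105. None changed direction. The 109 do not measure how stable the calls are, because named genes were picked mostly among calls that stayed with every library left out. Of 969 recomputed list counts 806 were within 1.5 times the count reported. Same-numbered centroblast and centrocyte libraries deviated together in libraries 2 and 3 (r = 0.646 and 0.694 over 9782 genes) but not in library 1 (−0.022). The value for library 4, 0.15, was below those of centroblast library 4 with centrocyte libraries 3 (0.381) and 1 (0.201). Centrocyte library 2 also correlated with centroblast library 1 (0.633). Same-numbered libraries matched in sex, with libraries 1 and 2 male and libraries 3 and 4 female in each group. These values do not settle whether the numbers pair mice. A fit with the replicate block called 1893 genes higher in control centrocytes and 1388 lower, 19 oxidative phosphorylation members fell against 29, 14 replication members fell against 25, and 7 ribosome biogenesis members rose against 12. Depth limits the lowest genes named, such as Atf3 and Cd5, more than the others.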

Other observations

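Xist, the noncoding RNA that coats the inactive X chromosome, was read by zone in the female libraries. In control females it measured 578 and 286 CPM in centroblasts and 1448 and 1683 CPM in centrocytes. In mutant females it measured 646 and 583 CPM in centroblasts and 1300 and 772 CPM in centrocytes. Both centrocyte libraries were above both centroblast libraries in each genotype. In control females alone, 2 libraries against 2, the log2 fold change was 1.86 (edgeR adjusted p = 0.00911). Over all 8 control libraries it did not pass (1.86, adjusted p = 0.577). Over the same 8 it was 1.17 with the GC content and length offset (adjusted p = 0.713) and 1.53 with the replicate block (adjusted p = 0.0359). Across genes the fold change in females correlated with transcript length at 0.248. The part of length in the Xist difference was not tested in females alone. Control males held 0.31 to 0.715 CPM. The gene is named here after its values were seen.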
